A study of Mus musculus with 2 samples.

Results

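Terc, Rmrp, Gas5, H19 and Meg3 are genes whose RNA works without being translated, and they are described here by every array probe that carries their names. Meg3 is written Gtl2 in the files. They gave 12 probes of 41174 distinct ones, and 5 of 27962 gene names. The probes were chosen by gene name alone, but the genes were put together with ratios of these same arrays already known. Their values are therefore a description, without a test.

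The samples came from 3T3-L1 (CL-173), a mouse preadipocyte line that can be turned into adipocytes in culture. Adipocyte-derived microvesicles (ADMs) were spun out of day 11 conditioned medium by ultracentrifugation and set against the donor 3T3-L1 adipocytes harvested on that day. Both came from cells in 10% FCS that had been given insulin (10 µg/ml), dexamethasone (0.25 µM) and the phosphodiesterase inhibitor 3-isobutyl-1-methylxanthine (0.5 mM). Each of 2 Agilent arrays held 1 ADM RNA beside 1 donor RNA, the ADM RNA in Cy5 in replicate 1 and in Cy3 in replicate 2. The labels call the replicates biological without saying whether they were cultured separately, so p-values rest only on spread between these 2 arrays. The spread of each probe was moderated by that of all tested probes, with 2.91 prior degrees of freedom beside 1 residual.

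Telomerase RNA (Terc) is the template that telomerase copies onto chromosome ends, and Rmrp is the RNA core of RNase MRP, which cuts ribosomal RNA precursors in the nucleolus. Gas5 is a spliced RNA that accumulates in growth-arrested cells, carries snoRNAs in its introns and is removed by nonsense-mediated decay. H19 and Meg3 are long RNAs made from the maternal copy of imprinted loci and are abundant in the embryo.

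Net signal is the mean of a spot minus the median of its local background, in scanner units. Below, the ADM readings of a probe are its net signals from the ADM-labelled RNA in replicate 1 and then replicate 2, and its cell readings are those from the cell-labelled RNA in the same order. A log2 ratio sets ADM-labelled against cell-labelled signal, after loess unless another scale is named, with ± for the SD over the arrays (n = 2).

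A probe was tested when either RNA was well above background by the scanner's flag on both arrays and a spot without outlier flags remained on each, which held for 18117 probes. Over these the median ADM readings were 545 and 208, against median cell readings of 17.3 and 36.5. The median probe thus stood 38.8-fold higher with the ADM label in replicate 1 and 7.64-fold higher in replicate 2, and 89.9% of tested probes had more net signal with the ADM label on both arrays. Loess puts the median of tested probes at 0.07 on the log2 scale, while centring each array on its own median before that filter puts it at 2.04. Of 75 tested genes in the lists below, 37 had a log2 ratio under 0 after loess, and 33 of those 37 were above 0 with median centring. For called genes and the member probes that passed the filter, the median-centred value is printed where its sign differs. In 14 of the 75 the cell-labelled RNA was well above background on neither array, so their ratios are against an unmeasured level. Of 12 adipocyte markers, 12 were well above background on both arrays with the ADM label and 11 with the cell label. Of 5 macrophage markers 1, Cd68, was so with the ADM label and 0 with the cell label, with summed ADM readings of 115 and 53.0 and summed cell readings of 38.9 and 46.2. Of 4 endothelial markers 0 were so with either label. With the ADM and then the cell label the counts were 5 and 2 of 5 preadipocyte markers. They were 1 and 2 of 2 erythroid markers, and 1 and 0 of 3 muscle markers.

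**Figure D1:**
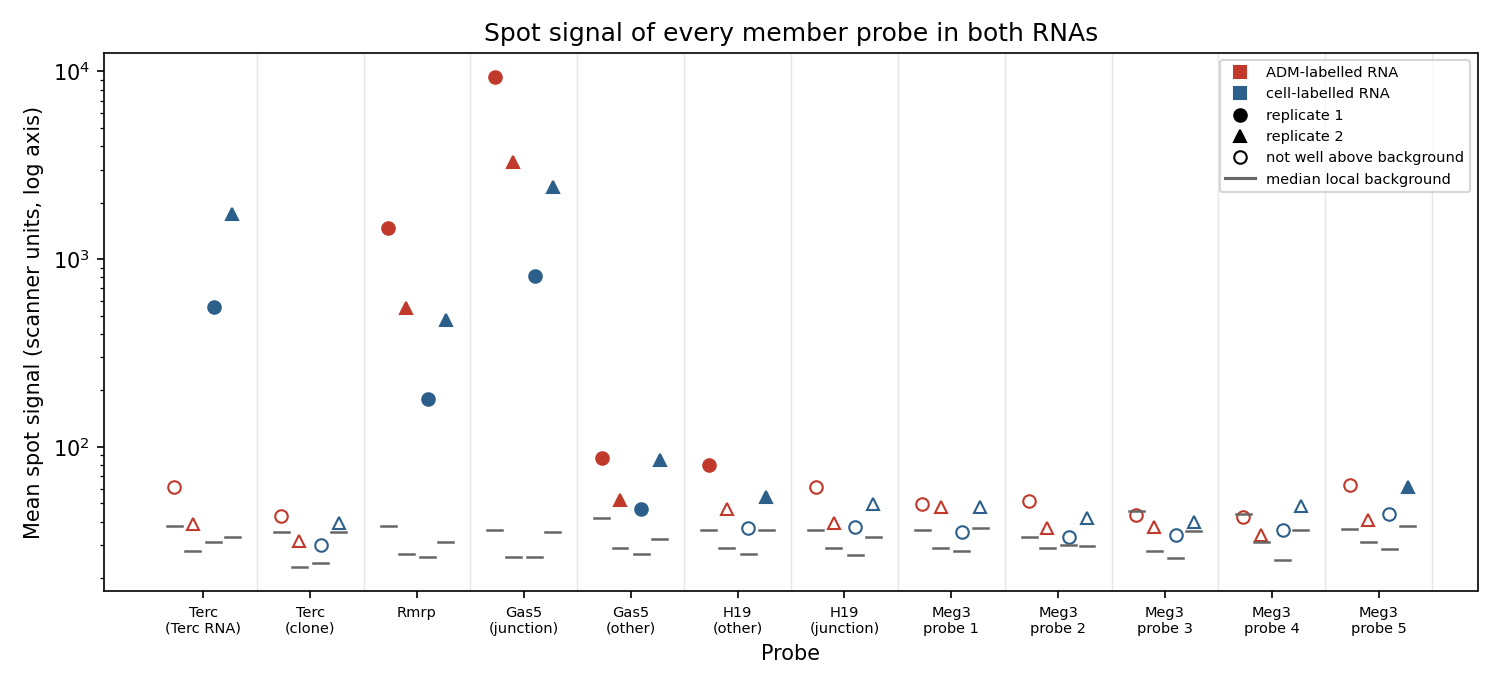
Mean spot signal (scanner units, log axis) of the 12 member probes, with ADM-labelled RNA in red left of cell-labelled RNA in blue; circles are replicate 1, triangles replicate 2, open symbols are not well above background and short lines are the median local background. The Terc RNA probe clears its background only in blue, Rmrp and both Gas5 probes clear it in both colours, and H19 and Meg3 stay near the background lines.

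Of the 12 probes, 3 were well above background with the ADM label on both arrays and 4 with the cell label on both, where the shares over all probes were 45.8% and 23.8%. In 6 of the 12 no reading was, as in 43.2% of all probes. The signal filter let through 4 probes from 3 of the 5 genes: 1 of Terc, 1 of Rmrp and both of Gas5. None of the 12 carried an outlier or saturation flag, and each was a single spot.

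Terc had the widest gap of the 5 genes, on the side of the cells. Its probe in the annotated RNA lies at chromosome 3, 96288724 to 96288783, minus strand, in mouse build mm7. The ADM readings were 23.1 and 10.8, against cell readings of 524 and 1712. Both cell readings lay far above both ADM readings, and the order held with the dyes exchanged.

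The ADM readings of Terc were not well above background on either array, so its fold is a bound. The lowest single-spot reading that counted as well above background with the ADM label was 26.6 in replicate 1 and 13.4 in replicate 2. Against these floors, Terc net signal was at least 19.7-fold lower with the ADM label in replicate 1 and at least 127-fold lower in replicate 2. The fitted log2 ratio, which rests on those ADM readings, was -6.78 ± 0.76, with median centring -4.13 ± 1.05, and with the scanner's processed signals -11.11. It was -2.35 when spots with an outlying local background were kept.

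Less net signal with the ADM label on both arrays, as in Terc, was seen in 4.2% of tested probes. Well above background with the cell label on both arrays and with the ADM label on neither described 730 probes in all, or 1.77%.

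A second Terc probe, designed on an embryonic lung cDNA clone, lies at chromosome 3, 96286507 to 96286566 (mm7). Its ADM readings were 8 and 8.38, against cell readings of 6.11 and 4.24, and none of the 4 was well above background. There are 2157 bases between the probes, while the annotated Terc RNA is 397 bases long in RefSeq (GRCm38.p6). Both cannot lie in an RNA of that length, so the Terc values rest on 1 probe.

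The probes of other genes most like Terc, by Euclidean distance over the 4 log2 signals, were Cpb2, which encodes a plasma carboxypeptidase, Acot6, an acyl-CoA thioesterase gene, and Kcna7, a potassium channel gene. Cpb2 had ADM readings of 23.8 and 9.71, against cell readings of 501 and 1978. Acot6 (4632408A20Rik in the file) had 15.1 and 11.2, against 440 and 1852. The distances were 0.21, 0.30 and 0.34.

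Genes for telomerase and telomere proteins were mostly uncalled. Of 17 telomerase and telomere genes on the array 11 were tested, and limma called 0 higher and 1 lower, with a median log2 ratio of 0.13. Over all probes tested, 5.53% were called higher and 10.9% lower. All 11 genes had more net signal with the ADM label on both arrays, as did 89.9% of all tested probes. The lower gene was Nhp2 (Nola2 in the file), a protein of the particle that holds Terc, at -0.57 ± 0.0023 (limma adjusted p = 0.0459), which became 3.53 with median centring.

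Other genes of the list did not pass. Dkc1, the dyskerin gene, had ADM readings of 245 and 103, against cell readings of 13.0 and 16.0 that were not well above background (limma adjusted p = 0.781). Gar1, another protein gene of that particle, had a log2 ratio of 0.13 ± 0.14 (limma adjusted p = 0.457). Its cell reading was not well above background in replicate 1. Parn, whose product trims the 3′ end of telomerase RNA, had 0.38 ± 0.24 (limma adjusted p = 0.144), and Tep1, a telomerase-associated protein gene, 0.48 ± 0.10 (limma adjusted p = 0.0672). The 3 probes of Terf2, a telomere-binding protein gene, disagreed, with log2 ratios from -1.61 to 0.20.

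**Figure D2:**
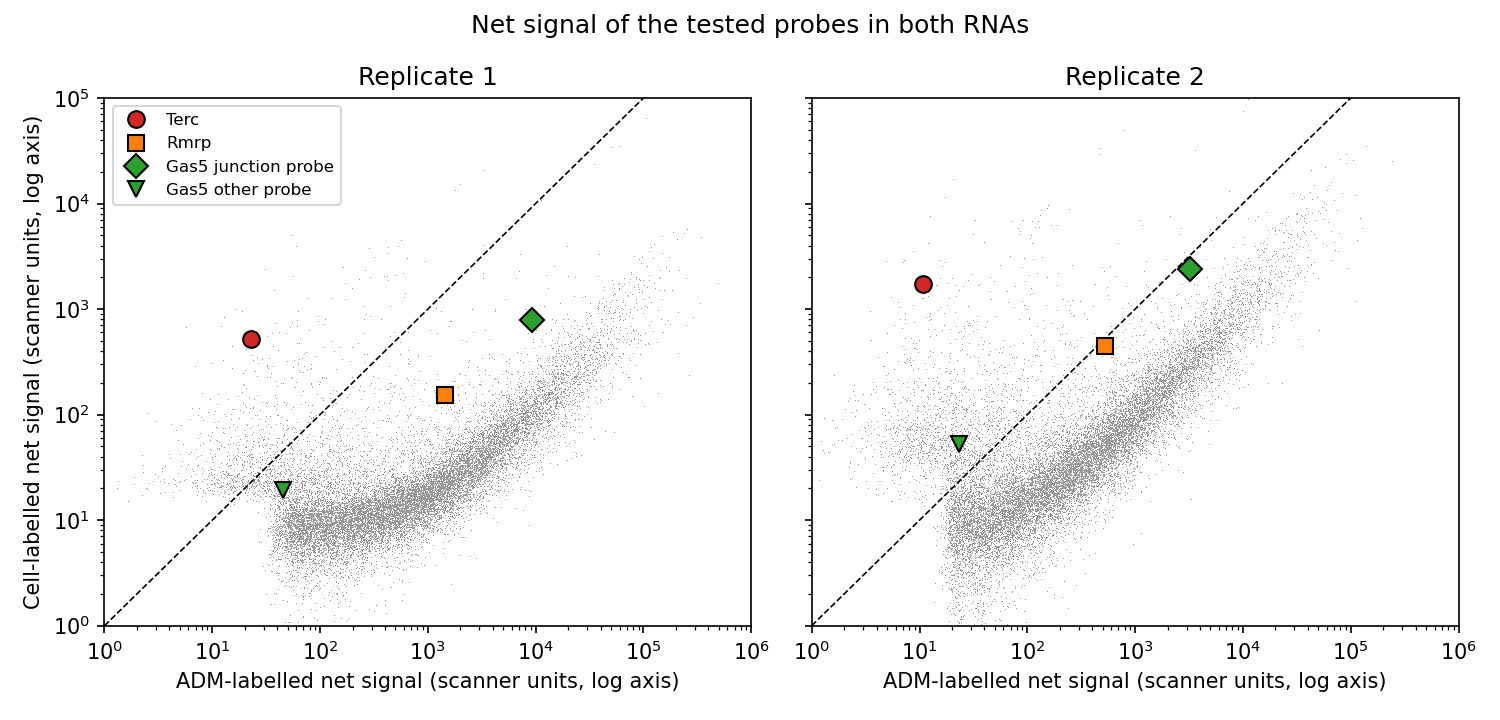
Net signal of the ADM-labelled RNA (x axis) against the cell-labelled RNA (y axis), both in scanner units on log axes, for the tested probes with net signal above 0 in both RNAs of that array (grey). The dashed line marks equal net signal; Terc lies above it in both replicates, at 524 and 1712 cell units, while Rmrp and the Gas5 junction probe lie below it.

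Rmrp was seen clearly with both labels. Its single probe lies at chromosome 4, 43506634 to 43506693, minus strand (mm7). The ADM readings were 1434 and 523, against cell readings of 154 and 445. Net signal was 9.33-fold higher with the ADM label in replicate 1 and 1.17-fold higher in replicate 2, so the RNAs came close in replicate 2.

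Against the shift of all probes, Rmrp stood on the cell side. Its log2 net ratio minus the median of tested probes was -2.06 in replicate 1 and -2.70 in replicate 2. The log2 ratio was -2.35 ± 0.34, and -2.96 with the processed signals. With median centring it was 1.21 ± 1.57, which is 0.84 under the median of tested probes on that scale (-0.84). From the lowest of the tested probes, Rmrp stood 2.80% up after loess and 34.6% up with median centring. With outlying local backgrounds kept it was -0.62.

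Rmrp and Terc are both short structured RNAs and differed in their ratios. The log2 net ratio of Rmrp minus that of Terc was 7.73 in replicate 1 and 7.54 in replicate 2. A channel factor shared by all probes cancels in this comparison, but one that varies with brightness does not. The gap was narrower after loess, where Rmrp had -2.35 and Terc -6.78. The comparison carries the same limit as the Terc fold. Rmrp minus the Gas5 junction probe gave -0.34 and -0.21.

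The protein genes of RNase MRP and its relative RNase P were mostly near 0 after loess, where the median of all tested probes was 0.07. Of 12 genes on the array 11 were tested, and limma called 0 higher and 2 lower, with a median log2 ratio of 0.06. Over all probes tested, 5.53% were called higher and 10.9% lower. The list median was 2.70 with median centring, against 2.04 over all tested probes. Of the 11 genes, 10 had more net signal with the ADM label on both arrays. Pop1, the largest protein of both enzymes, had ADM readings of 2000 and 758, against cell readings of 244 and 821. Its log2 ratio was -2.81 ± 0.37 (limma adjusted p = 0.00724), but another Pop1 probe gave -0.21, and median centring turned the first to 1.02. Rpp21 had -0.65 ± 0.15 (limma adjusted p = 0.0435), which became 3.36 with median centring. Pop5 did not pass, at 0.37 ± 0.0046 (limma adjusted p = 0.0959).

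The probes most like Rmrp were an unnamed Ensembl transcript, Rnf141, a ring finger gene, and Ttl, which encodes tubulin tyrosine ligase. Rnf141 had ADM readings of 1464 and 522, against cell readings of 143 and 518. Ttl had 1329 and 501, against 149 and 385. The distances ran from 0.20 to 0.22.

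Of 5 genes that the list of small noncoding RNAs holds beside Terc and Rmrp, 3 were tested and limma called 0 in either direction. Among all tested probes 5.53% were called higher and 10.9% lower. Snord33 (Rnu33 in the file), a snoRNA, had ADM readings of 44.9 and 23.0, against cell readings of 8.98 and 12.6, and Snora69 had 42.3 and 21.5, against 9.41 and 9.98. The cell readings of both were not well above background on either array, so no ratio is given (limma adjusted p = 0.963 and 0.761). The other was Rrp9 (Rnu3ip2 in the file), a protein gene of the U3 particle that entered through the spelling of its old name, at -0.69 ± 0.30 (limma adjusted p = 0.0574). A probe on a snoRNA may also read its host transcript, and the RNAs cannot be told apart here.

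**Figure D3:**
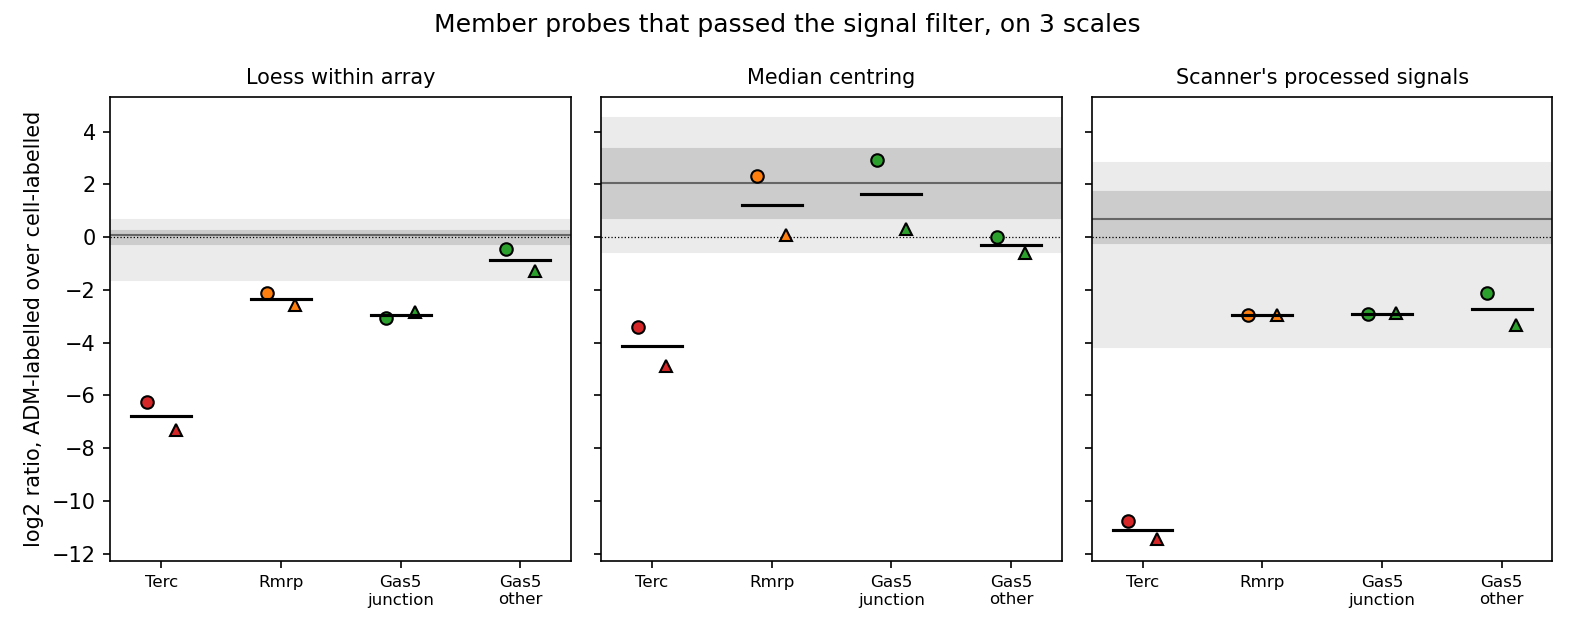
Log2 ratio of ADM-labelled over cell-labelled signal of the 4 member probes that passed the signal filter, after loess, with median centring and with the scanner's processed signals. Circles are replicate 1, triangles replicate 2 and black lines their mean; dark and light grey bands hold the 25th to 75th and 5th to 95th percentiles of the 18117 tested probes, with a line at their median. Terc is below the bands on every scale shown, while Rmrp and the Gas5 junction probe leave the bands after loess and have means inside them on the other scales.

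Gas5 was well above background on both its probes with both labels. The first, called the junction probe here because its file coordinates run over 246 bases, lies at chromosome 1, 160999683 to 160999928, plus strand (mm7). Its ADM readings were 9250 and 3247, against cell readings of 783 and 2395. Net signal was 11.8-fold higher with the ADM label in replicate 1 and 1.36-fold higher in replicate 2.

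Against the shift of all probes, the junction probe too stood on the cell side. Its log2 net ratio minus the median of tested probes was -1.72 in replicate 1 and -2.49 in replicate 2. The log2 ratio was -2.96 ± 0.16, and -2.90 with the processed signals. With median centring it was 1.63 ± 1.84, which is 0.41 under the median of tested probes there (-0.41). From the lowest of the tested probes, the junction probe stood 1.87% up after loess and 42.5% up with median centring. With outlying local backgrounds kept it was -1.78.

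The other Gas5 probe lies at chromosome 1, 160998608 to 160998667 (mm7). Its ADM readings were 45.5 and 23.3, against cell readings of 19.4 and 52.5. Net signal was 2.34-fold higher with the ADM label in replicate 1 and 2.25-fold lower in replicate 2. The log2 ratio was -0.86 ± 0.58, with median centring -0.30 ± 0.42, and with outlying local backgrounds kept -0.07. It was -2.72 with the processed signals and -2.62 with plain background subtraction, where the junction probe had -2.90 and -2.88. The Gas5 probes thus lay closer together with those settings than in the main analysis.

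RefSeq (GRCm38.p6) gives start-site windows for Gas5 and Meg3 among the 5 genes. They are shown because Gas5 was well above background in both RNAs and Meg3 was not. Each line holds 60 bases before and 40 after an annotated start on the plus strand, and the capitals mark the motif of the TATA box, searched as TATATA, and that of the cAMP response element, searched as TGACGTCA.
Gas5 chr1:161034541-161034640: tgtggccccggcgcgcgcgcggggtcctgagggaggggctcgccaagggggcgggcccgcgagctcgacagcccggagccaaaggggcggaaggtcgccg
Gas5 chr1:161035106-161035205: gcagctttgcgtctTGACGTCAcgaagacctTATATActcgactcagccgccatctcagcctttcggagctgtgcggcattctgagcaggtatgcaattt
Meg3 chr12:109540936-109541035: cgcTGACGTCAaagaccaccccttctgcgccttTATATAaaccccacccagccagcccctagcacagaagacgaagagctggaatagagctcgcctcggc
Meg3 chr12:109545338-109545437: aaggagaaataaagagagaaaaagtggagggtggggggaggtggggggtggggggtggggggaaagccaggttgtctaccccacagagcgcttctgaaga

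Both motifs read the same on either strand, they do not overlap in these windows, and they were picked after the windows were read. The TATA motif begins 29 bases before the downstream Gas5 start and 27 before the upstream Meg3 start, and the cAMP motif 46 and 57 bases before. Of 32851 such windows in the table, 1.95% hold the TATA motif, 0.986% the cAMP motif and 4 windows both. Those 4 belong to Gas5, Meg3, Ucn, the urocortin gene, and Gm5485. A match is a description of the letters and not of a bound site.

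Other snoRNA host genes were mostly under 0 after loess, as were 37 of the 75 tested list genes. Of 10 on the array 7 were tested, and limma called 0 higher and 3 lower, with a median log2 ratio of -0.14. All 7 had more net signal with the ADM label on both arrays, as did 89.9% of all tested probes. The shares over all probes tested were 5.53% higher and 10.9% lower. Zfas1 (1500012F01Rik in the file), a snoRNA host, had ADM readings of 4089 and 1619, against cell readings of 214 and 646, and a log2 ratio of -1.73 ± 0.08 (limma adjusted p = 0.00782). Snhg17 had -1.22 ± 0.45 (limma adjusted p = 0.0340) and Snhg5 -0.68 ± 0.12 (limma adjusted p = 0.0386). With median centring these became 2.28, 1.97 and 2.85, and stood 0.24, -0.07 and 0.80 from the median of tested probes on that scale. Snhg18 (-0.14), Snhg20 (-0.14), Snhg7 (-0.11) and Snhg14, whose cell readings were not well above background, did not pass, with limma adjusted p from 0.412 to 0.603. Snhg18, Snhg20 and Snhg7 lay between the 25th and 75th percentiles of tested probes, -0.25 and 0.25. For Snhg7 the cell reading in replicate 1 was not well above background.

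The decay pathway that acts on spliced Gas5 was also measured. Its 10 genes and the glucocorticoid receptor gene Nr3c1, whose product Gas5 can bind, were all tested. Of the 11 limma called 0 higher and 4 lower, with a median log2 ratio of -0.58, where 5.53% and 10.9% of all tested probes were called. Smg5, which recruits decay enzymes, had -0.87 ± 0.02 (limma adjusted p = 0.0239). Upf3b had -0.79 ± 0.32, Smg9 -0.59 ± 0.10 and Upf3a -0.58 ± 0.09, with limma adjusted p from 0.0470 to 0.0482. With median centring these 4 became positive, from 2.16 for Upf3b to 3.95 for Upf3a. On that scale they stood above the median of tested probes, by 0.11 for Upf3b up to 1.91 for Upf3a. Another Upf3b probe gave 0.13 after loess. Upf1, the central helicase, had -0.59 ± 0.15 (limma adjusted p = 0.0520) and Nr3c1 0.44 ± 0.15 (limma adjusted p = 0.0859), so neither passed.

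The probes most like the Gas5 junction probe were Tpm4, a tropomyosin gene, Nfkbia, which encodes an inhibitor of NF-kappaB, and an unnamed cDNA. Tpm4 had ADM readings of 10174 and 3687, against cell readings of 625 and 1944. Nfkbia had 8708 and 3498, against 972 and 1706. The distances ran from 0.48 to 0.64.

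H19 was barely above background with either label. One probe lies at chromosome 7, 139003144 to 139003203, minus strand (mm7), with ADM readings of 44.3 and 17.6, against cell readings of 9.81 and 17.8. Only its ADM reading in replicate 1 and its cell reading in replicate 2 were well above background. The other, over 148 bases at 139003393 to 139003540, had ADM readings of 25.3 and 10.1, against cell readings of 10.8 and 16.8, none of them well above background. The replicates fell on opposite sides for both probes in net signal, and no difference was detectable at this signal.

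Meg3 was covered by 5 probes spread over 21763 bases of chromosome 12, plus strand (mm7). In replicate 1 the ADM readings lay between -2.03 and 25.9, against cell readings between 3.25 and 15.5. In replicate 2 the ADM readings lay between 2.89 and 18.7, against cell readings between 4.40 and 23.0. Of these 20 readings 1 was well above background, the cell reading of 23.0 in replicate 2 for the probe at 107092697 to 107092756. The probe at 107070994 to 107079479, whose coordinates bridge 8486 bases, had ADM readings of 13.7 and 18.7, against cell readings of 7.31 and 11.0. No fold is given for Meg3 at this signal. The nearest named probes were Nrsn1 for Meg3, and Ido2 and Rsph9 for H19, all of them near background too.

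Neighbours of Meg3 and H19 on their imprinted loci were measured too. The noncoding Rian and Mirg, from the Meg3 locus, had no reading well above background, and Dio3os (Dio3as in the file) had 1, a cell reading of 17.1 in replicate 2. Dlk1, a protein-coding gene of that locus and a preadipocyte marker, had ADM readings of 36171 and 14327, against cell readings of 245 and 976, and a log2 ratio of 0.35 ± 0.15 (limma adjusted p = 0.134), while another probe gave 1.17. Igf2, the growth factor gene beside H19, had 2325 and 1119, against 45.4 and 136, and a log2 ratio of -0.14 ± 0.06 (limma adjusted p = 0.419), while another probe gave 0.24.

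Of 40 imprinted protein genes on the array 23 were tested, and limma called 3 higher and 1 lower, with a median log2 ratio of 0.14. Over all tested probes the median was 0.07, with 5.53% called higher and 10.9% lower. Igf2r, the receptor that clears IGF2, had 1.49 ± 0.09 (limma adjusted p = 0.0110), Mest 0.76 ± 0.09 (limma adjusted p = 0.0303) and Gnas, the stimulatory G protein gene, 0.75 ± 0.05 (limma adjusted p = 0.0301). These 3 stayed positive with median centring, at 5.19, 3.65 and 4.86. The cell reading of Mest, 7.67 in replicate 1, was not well above background, and its ratio ran to 1.90 with plain background subtraction and 3.13 with the processed signals. Usp29, a gene of the Peg3 locus, was the lower one, with ADM readings of 130 and 93.6, against cell readings of 1258 and 3008. Its log2 ratio was -7.45 ± 0.27 (limma adjusted p = 0.000706), and -3.92 with median centring. Peg3 itself had ADM readings of 83.8 and 44.0, against cell readings of 9.64 and 5.31 that were not well above background, and did not pass (limma adjusted p = 0.467).

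Of 18 other long noncoding RNAs on the array 9 were tested, and limma called 0 higher and 1 lower, with a median log2 ratio of -0.21. The shares over all probes tested were 5.53% higher and 10.9% lower, with a median of 0.07. The lower one was Ftx (B230206F22Rik in the file), of the X-inactivation centre, with ADM readings of 19.7 and 7.42, against cell readings of 25.5 and 34.6. Its ADM readings were not well above background on either array, and its cell reading of 25.5 in replicate 1 lies under the ADM floor of 26.6, so no fold is given. The fit called it lower (limma adjusted p = 0.0313), with a log2 ratio that depended on the background correction, at -0.74 in the main analysis, -1.67 with an offset of 10 and -4.15 with the processed signals. With median centring the call was lost (limma adjusted p = 0.470).

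Malat1, a nuclear RNA, had ADM readings of 6707 and 2732, against cell readings of 126 and 380, and -0.40 ± 0.05 (limma adjusted p = 0.0853) by the probe that stands for it. Its other tested probes gave -0.72 and -1.12, and both of those passed (limma adjusted p = 0.0390 and 0.0267), but median centring turned them to 3.28 and 1.14. Neat1 (2310043N10Rik in the file), the RNA of paraspeckles, had ADM readings of 9653 and 3835, against cell readings of 122 and 348, and 0.08 ± 0.16 (limma adjusted p = 0.662). Sra1 (-0.61), Dleu2 (-0.49), Oip5os1 (-0.21) and Mir22hg (-0.02) did not pass, nor did Tug1 and the imprinted antisense RNA Kcnq1ot1, whose cell readings were not well above background (limma adjusted p from 0.0544 to 0.904). For Mir22hg the cell reading in replicate 1 was not well above background.

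The calls over the lists depended on the processing. With outlying local backgrounds kept, all 15 were lost (limma adjusted p = 0.547). Plain background subtraction lost 9 and the processed signals 6, and Zfas1, Snhg17, Igf2r, Usp29, Pop1 and Ftx passed under both of these. With median centring, Igf2r and Usp29 kept call and direction, Zfas1 and Snhg17 were called higher, and Pop1 and Ftx lost their calls.

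**Figure D4:**
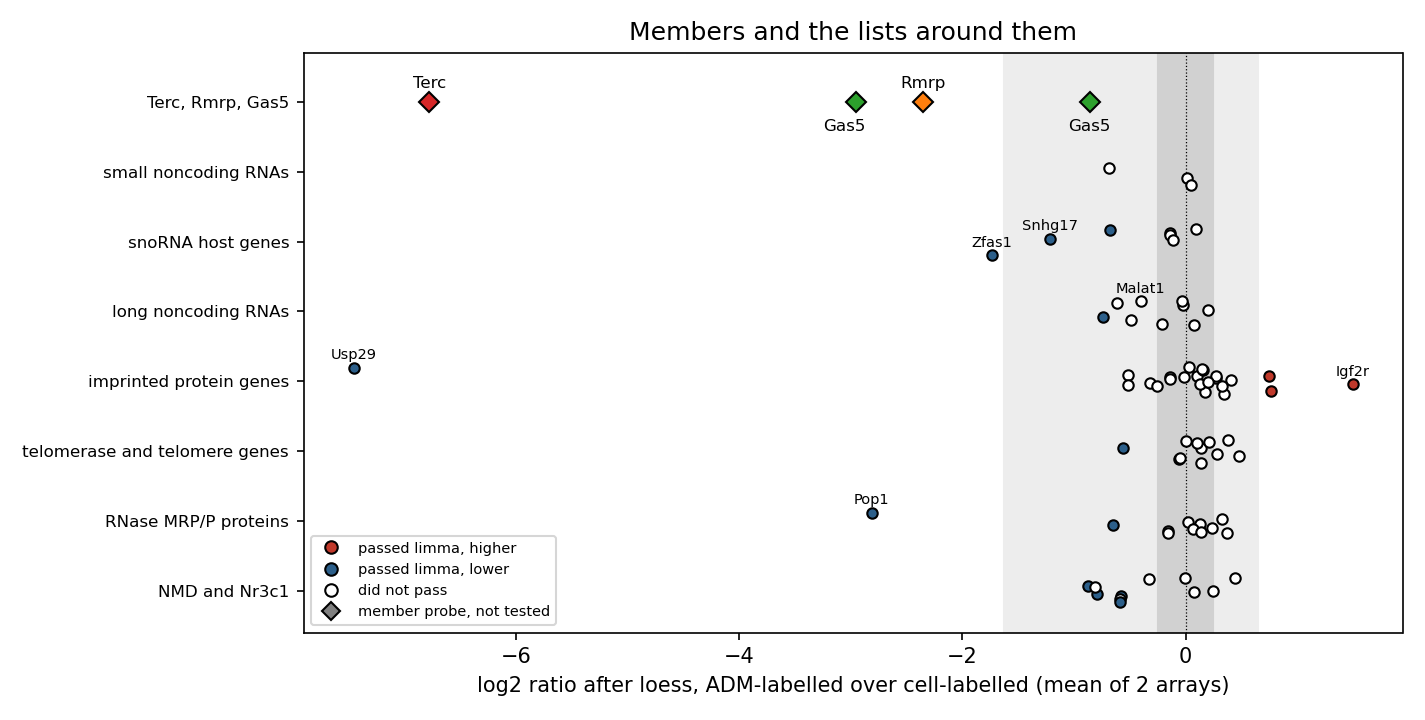
Log2 ratio after loess (x axis, mean of 2 arrays, ADM-labelled over cell-labelled) of the 4 member probes that passed the signal filter (diamonds) and of the tested genes of each list (circles, 1 probe a gene), with filled circles for genes that passed limma. Dark and light grey bands hold the 25th to 75th and 5th to 95th percentiles of the tested probes; Usp29 at -7.45 and Pop1 at -2.81 lie far to the left among the list genes, Igf2r at 1.49 to the right.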

How the data were processed

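Total RNA was measured on 2 arrays of 43379 gene spots each. Mean spot and median background intensity were used as deposited, from Feature Extraction 10.5.1.1 with annotation mm7 (per the file headers). The processed intensity and log10 ratio were detrended and dye-normalized by that program, per the file headers. The series table, also deposited as log10 ratio, correlated with the scanner's at 1 and -1 on arrays 1 and 2, so it runs as ADM over cell on both by the dyes in the labels. Its medians are 0. No source used here says whether it was centred further. Flags are deposited as 0 or 1 per spot.

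Spots with a feature or local-background outlier flag were left out, a choice that follows an earlier analysis of these data which made it after seeing its own calls. Background was corrected with normexp (offset 50), and ratios with loess (span 0.3, controls at weight 0), which takes probes of like brightness to be balanced between the RNAs. Replicate spots were averaged, and a flag in at least 50% of them counted. Ratios were tested with lmFit and eBayes of limma 3.58.1 (R 4.3.3) at a Benjamini-Hochberg threshold of 0.05, after a run of the script on simulated data. The residual degree of freedom, 1 per probe, was joined by 2.91 prior ones. A list gene is represented by its brightest tested probe. Symbols come from RefSeq GRCm38.p6 (22951 probes by accession, 3109 by synonym). Members and lists were chosen with earlier results of these data known. Named genes are the members, up to 3 called per direction and list, tested long noncoding and host RNAs, and the 3 nearest probes per member. Upf3a and list genes named without a call were chosen after their values were seen. The number of arrays limits the precision.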

Additional observations from a re-analysis of the deposited data

How the results depend on the processing

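Calls are given as higher and lower over all tested probes, then over list genes. The main analysis made 1001 and 1971, then 3 and 12. An offset of 10 gave 1867 and 3063, then 4 and 16, and plain background subtraction 462 and 1503, then 2 and 5. Median centring gave 10773 and 265, then 56 and 1, with p-values from a variance shared by all probes. Processed signals gave 5798 and 2574, then 16 and 11, and trended eBayes 4532 and 3221, then 15 and 19. With no replicate block, the 4 channel values taken as separate samples, there were 1945 and 3075, then 5 and 17. With outlying local backgrounds kept limma called 0 and 0, then 0 and 0, while 677 probes and 4 list genes had an unadjusted p under 0.05. Higher calls were 33.7% of all in the main analysis, 97.6% with median centring, 69.3% with processed signals and 58.5% with trended eBayes. No filter, well above background in both RNAs, 1 probe a gene and robust eBayes stayed within 1.5 times the main counts. Upf3a and Upf3b lost their calls in the last 2 of these. Ftx and Mest were not tested where both RNAs had to be well above background. A single array leaves no residual degree of freedom, so no calls were made without replicate 1 or 2; the 4 filtered member probes kept their signs on each array. Among filtered member probes, median centring turned the signs of Rmrp (1.21) and the Gas5 junction probe (1.63). Among called list genes it turned Zfas1 (2.28), Snhg5 (2.85), Snhg17 (1.97), Nhp2 (3.53), Rpp21 (3.36), Pop1 (1.02), Upf3a (3.95), Smg5 (3.00), Upf3b (2.16) and Smg9 (2.37). Without normalization Rmrp (1.73) and the Gas5 probes (2.00 and 0.028) turned. The cause was not tested. Signal over background limits Terc with the ADM label, and H19 and Meg3 with both.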

Other observations

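Some noncoding probes were not tested because their spot carried an outlier flag on 1 array. Snhg16 (1810032O08Rik in the file), a snoRNA host, had ADM readings of 2262 and 927, against cell readings of 143 and 422, and a log2 ratio of -1.85 in replicate 2. Another probe of Oip5os1 had 2243 and 768, against 46.2 and 144. Xist gave 0 readings well above background over its 4 probes.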
